A study of Mus musculus with 12 samples.

Results

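Oxidative phosphorylation was described here through 97 nuclear protein-coding genes of the deposited count table, out of 39756 genes and 21774 protein-coding genes in all. They were chosen by a rule on names and not on measured values, though earlier results of these data were known. The rule took every protein-coding gene whose symbol begins with Nduf, Uqcr, Atp5 or Cox4 to Cox8, and Sdha, Sdhb, Sdhc, Sdhd and Cyc1. By complex, 39 belonged to complex I, 8 were the complex I assembly factors Ndufaf1 to Ndufaf8, 4 belonged to complex II, 9 to complex III, 20 to complex IV (with Ndufa4 and its paralogue Ndufa4l2 placed there) and 17 to complex V. The protein genes of the mitochondrial genome were not analysed here, and the 22 tRNA and 2 rRNA genes of chrM that were measured are given apart.

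The data were RNA sequencing counts from the ischemic hemisphere of 12 male C57BL/6J mice, aged 9 to 10 weeks and given saline or drug by mouth for 14 days before surgery, with dosing carried on after it. Sham mice (n = 4) had sham surgery after saline. Vehicle mice (n = 4) received saline and then a transient occlusion of the middle cerebral artery (tMCAO) of 45 min, made with a thread that is later withdrawn so that blood returns. LJP mice (n = 4) had the same occlusion and received a polysaccharide of the brown alga Laminaria japonica. All 12 libraries carried the same batch label, each label named a replicate mouse, and the labels give no dose or time point. The study carried its middle dose into the experiments after dose finding, and the sequenced mice are not tied to a dose by name. The sample was a whole hemisphere, so that fewer cells of a type and less RNA per cell cannot be told apart.

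Oxidative phosphorylation is the route by which mitochondria turn the energy of food into ATP. Complexes I and II feed electrons from NADH and succinate into ubiquinone, complex III hands them to cytochrome c, complex IV passes them to oxygen, and complex V uses the proton gradient built on the way to make ATP. Neurons depend heavily on this route, and the loss of oxygen and glucose during an occlusion halts it. Complex II is built only from nuclear genes, whereas the others also need proteins made inside the mitochondrion, so transcripts from both genomes are required in balance.

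Total counts per mouse lay between 17960353 and 22216315. With edgeR's quasi-likelihood test, 17558 genes had enough counts to be tested, and 92 of the 97 genes were among them. The 5 others were Cox7b2, Cox8b, Cox8c, Ndufb4b and Ndufb4c, which had between 0 and 17 counts per mouse. Levels are given as CPM, the counts of a gene scaled to the same normalized library size in every mouse, and a gene was called changed at an adjusted p below 0.05. Markers of neurons, astrocytes, microglia and oligodendrocytes were present, as in brain tissue. Vehicle mice had lower neuron markers and higher endothelial markers than Sham mice, most of all Vehicle 2 and Vehicle 1, as described with the plot of list medians.

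The 92 genes were abundant and even between mice. Their median level was 59.9 CPM in Sham mice, compared with 16.5 CPM for all genes tested. The median coefficient of variation between mice was 4.64% in Sham, 8.03% in Vehicle and 6.38% in LJP, compared with 8.39%, 21.4% and 10.9% for all genes tested. Here and below, the 92 genes and all genes tested were not matched for level. Together the genes took 0.828 to 0.920% of all counts in a mouse, and the 12 values of the 3 groups overlapped. Per kilobase of gene length, the highest levels in Sham mice were those of Atp5b (581 CPM per kb), the catalytic subunit of complex V, and Cox4i1 (537 CPM per kb), the ubiquitous form of subunit 4 of complex IV. The lowest were those of the assembly factors Ndufaf6 (1.21 CPM per kb) and Ndufaf5 (1.43 CPM per kb) and of Ndufa4l2 (1.46 CPM per kb).

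The comparison of Vehicle with Sham mice shows how these genes differed after ischemia and reperfusion. Most differed little. Of the 92 genes, 13 were called changed (14.1%), 6 higher and 7 lower in Vehicle mice, beside 39.9% of all genes tested (22.7% higher, 17.3% lower). DESeq2 called 14 (36.4% of all genes it tested), and 19 had an unadjusted p below 0.05 (49.9% of all genes tested). The median absolute log2 fold change was 0.11, compared with 0.35 for all genes tested, and 1 gene, Ndufa4l2, passed the study's thresholds of unadjusted p below 0.01 and absolute log2 fold change over 0.58 (21.7% of all genes tested did). For 82 of the 92 genes the 95% interval of the log2 fold change lay within 0.58 of 0. The median log2 fold change was -0.02, and complex II (0.14) and the assembly factors (-0.25) lay farthest from 0. With library sizes alone in place of TMM factors the calls split into 15 higher and 1 lower. The shares of all genes called higher and lower under that scaling are not given here. That scaling moved the median of all genes to 0.077 and that of the 92 genes to 0.057, and 0 of the 13 called genes changed sign. Of the 13 genes, 7 were also called under that scaling, and 6 of those (Ndufa4l2, Atp5g2, Ndufb7, Ndufa2, Ndufv3 and the lower Ndufaf4) were called in each of 7 alternative settings of tool, normalization (library sizes alone included), filter and model and in each of 12 fits that left out a mouse. The count fell to 6 without Sham 3, 7 without Sham 1, 8 without Sham 4 and 8 without Vehicle 1.

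**Figure D1:**
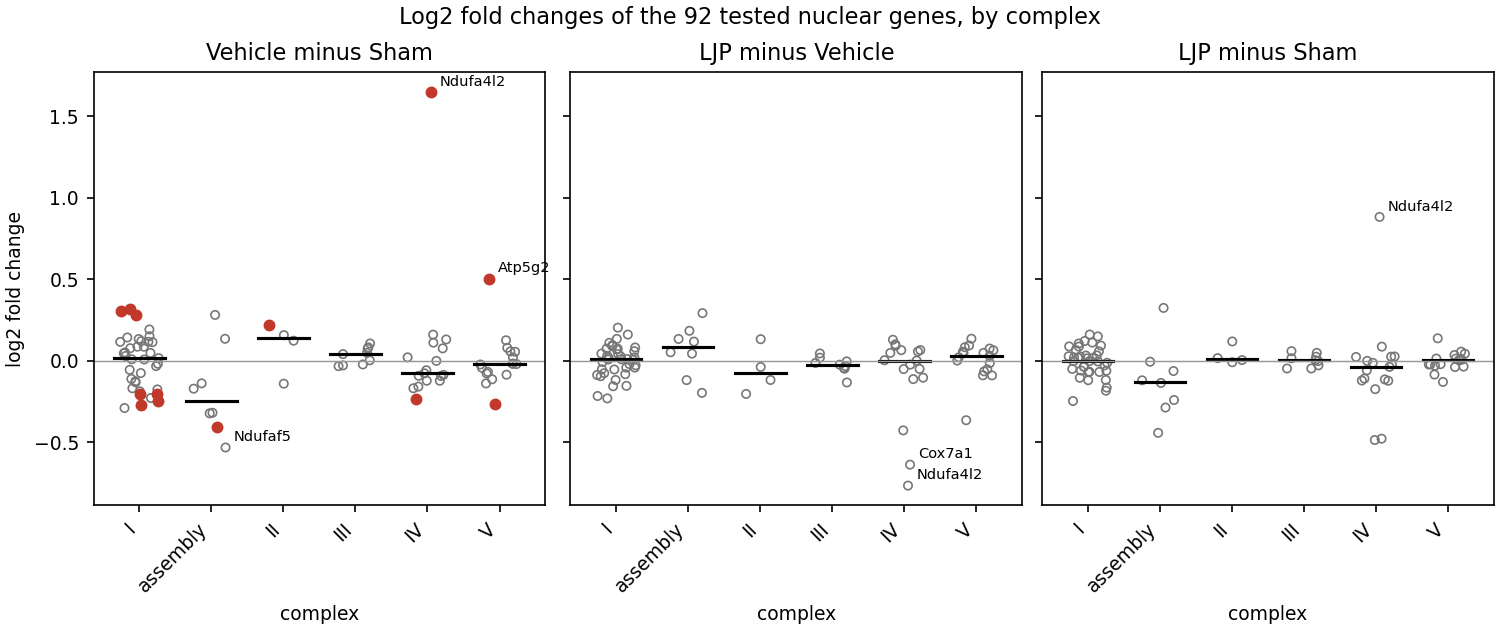
Each point is a tested gene at its log2 fold change (y axis), placed by complex (x axis), in 3 comparisons; filled red points had an edgeR adjusted p below 0.05 and black bars are medians. In Vehicle minus Sham, 13 of 92 points are filled and Ndufa4l2 stands alone at 1.65; in the other 2 comparisons 0 are filled.

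**Figure D2:**
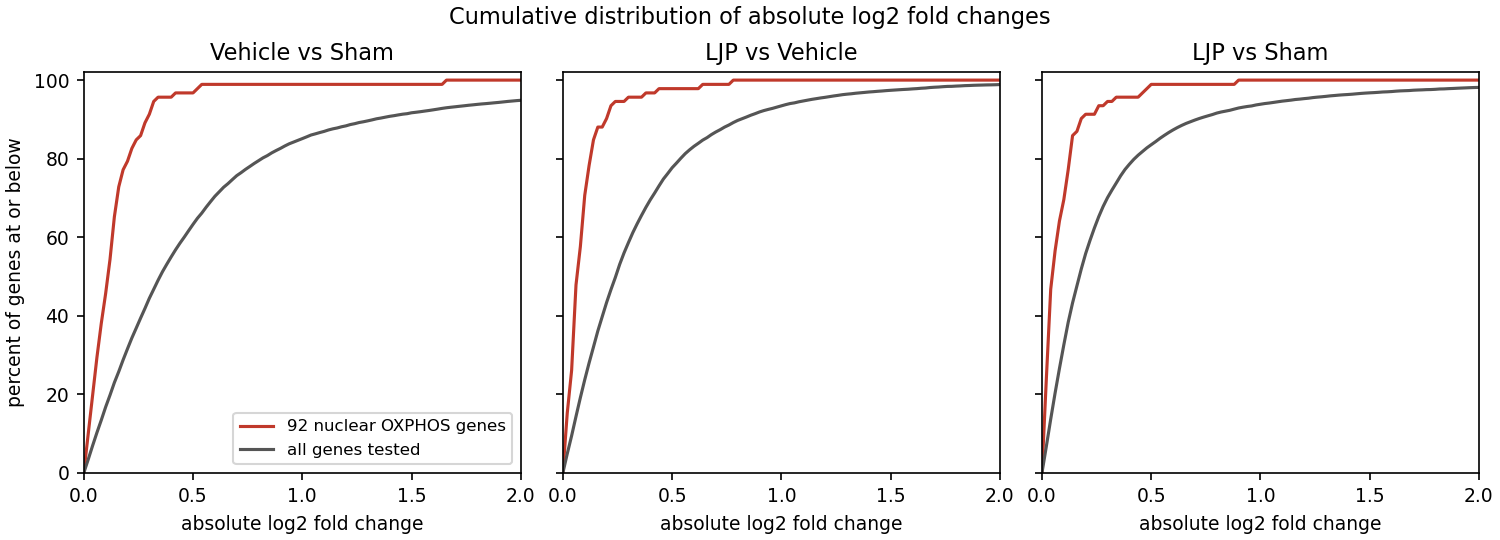
Curves give the percentage of genes (y axis) whose absolute log2 fold change is at or below the value on the x axis, for the 92 nuclear genes (red) and all 17558 genes tested (grey). The red curve rises earlier in all 3 comparisons, and in Vehicle vs Sham the medians are 0.11 and 0.35. The median SE there was 0.08 for the 92 genes and 0.16 for all genes tested, and the 2 sets were not matched for level.

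The largest rise was that of Ndufa4l2 (chr10:127509274-127517154 of GRCm38), a paralogue of Ndufa4 that is known to be induced in hypoxia. The 4 Sham mice had 1.61, 1.80, 1.59 and 1.71 CPM, Vehicle mice 4.76, 8.25, 4.63 and 3.39, and LJP mice 2.82, 2.76, 3.54 and 3.29. Every mouse with an occlusion lay above every Sham mouse, and Vehicle 2 was the highest. The Vehicle mean was 3.13-fold the Sham mean in the fit (log2 fold change 1.65, SE 0.25, edgeR adjusted p = 0.000649). Its levels were low, so it supplied little beside Ndufa4, a subunit of complex IV, which measured 107 ± 2.59 CPM (SD, n = 4) in Sham and 101 ± 3.55 in Vehicle mice. Per kilobase, Ndufa4l2 made up 0.676 ± 0.0548% of the pair in Sham, 2.20 ± 0.891% in Vehicle and 1.25 ± 0.115% in LJP mice (SD, n = 4).

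Atp5g2 (chr15:102662868-102671047) rose next. It is 1 of 3 genes, with Atp5g1 and Atp5g3, that encode the same mature subunit c, the protein of the rotating ring of complex V. Sham mice had 57.8, 60.7, 58.2 and 62.9 CPM, Vehicle mice 84.0, 100.2, 76.4 and 78.7, and LJP mice 68.2, 64.3, 66.5 and 64.5. The 3 groups did not overlap, with LJP between the others. The log2 fold change of Vehicle against Sham was 0.50 (SE 0.08, edgeR adjusted p = 0.00101), whereas Atp5g1 (0.12, adjusted p = 0.292) and Atp5g3 (0.06, adjusted p = 0.499) were not called. Per kilobase, the 3 genes summed to 283 ± 10.2 CPM per kb in Sham, 333 ± 8.38 in Vehicle and 294 ± 10.4 in LJP mice, and the share of Atp5g2 was 32.8 ± 1.31%, 39.3 ± 4.29% and 34.6 ± 1.45% (SD, n = 4).

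The other genes called higher were in complexes I and II and rose by less. Ndufb7 (chr8:83566758-83571623), an accessory subunit of complex I, had 42.2 to 47.2 CPM in Sham mice and 51.7, 61.1, 55.1 and 51.9 in Vehicle mice. No Vehicle mouse fell to the Sham range, and the log2 fold change was 0.32 (SE 0.07, edgeR adjusted p = 0.00596). Ndufv3, an accessory subunit beside the NADH-oxidising site, measured 32.1 ± 1.40 CPM in Sham and 39.6 ± 3.97 in Vehicle mice (SD, n = 4), a log2 fold change of 0.30 (SE 0.08, adjusted p = 0.0126). Ndufa2, also an accessory subunit, measured 38.2 ± 2.55 and 46.3 ± 1.58 CPM (0.28, SE 0.07, adjusted p = 0.0110). Each of these genes separated the 4 Vehicle from the 4 Sham mice completely.

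Of the 7 core complex I genes in the nucleus, Ndufs1 was called. It encodes the largest iron-sulfur subunit of the arm that takes electrons from NADH. It was lower, at 116, 116, 114 and 109 CPM in Sham mice and 94.98, 79.5, 101.9 and 100.4 in Vehicle mice, with no overlap (log2 fold change -0.27, SE 0.08, edgeR adjusted p = 0.0231). Its span overlaps the antisense transcript Ino80dos by 14704 bases, and how reads there were assigned is not given in the sources used here. The accessory subunits Ndufs4, Ndufa10 and Ndufs5 were lower as well, by log2 fold changes of -0.25, -0.20 and -0.20. Ndufs4, in which mutations cause Leigh syndrome, had 31.5 to 33.7 CPM in Sham and 27.0, 28.4, 27.2 and 28.1 in Vehicle mice. The calls ended without Sham 1, Sham 2 or Sham 3 for Ndufs1 (adjusted p = 0.0551 to 0.0616), without Sham 3 for Ndufs4 (0.0576) and without Sham 1, Sham 3, Sham 4 or Vehicle 1 for Ndufa10 (0.0510 to 0.0981). Complex I held 3 genes called higher and 4 called lower among 37 tested (22.7% and 17.3% of all genes tested were), and its median log2 fold change was 0.02.

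The assembly factors of complex I had the lowest median of the parts. Ndufaf4 (chr4:24898083-24905001), which acts in building the arm that holds ubiquinone, was the factor called. Its Sham values were 18.9, 16.3, 18.4 and 16.3 CPM and its Vehicle values 13.5, 11.8, 11.6 and 15.9, and Vehicle 4 came closest to the Sham range (log2 fold change -0.40, SE 0.11, edgeR adjusted p = 0.0144). Ndufaf5, a modifying enzyme for a core subunit, had the lowest log2 fold change of all 92 genes, -0.53 (SE 0.20, adjusted p = 0.0520), and Ndufaf1 had -0.32 (SE 0.13, adjusted p = 0.0641). Both missed edgeR's threshold, while DESeq2 called Ndufaf5 (DESeq2 adjusted p = 0.0341) and not Ndufaf1 (0.0528). In this group 2 factors lay above 0 and 6 below.

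Complex II genes, which oxidise succinate, did not share a direction. Sdhd, a membrane anchor, was called higher at 55.3 ± 2.20 CPM in Sham and 64.3 ± 5.80 in Vehicle mice (SD, n = 4; log2 fold change 0.22, SE 0.08, edgeR adjusted p = 0.0381). The call ended when any of Sham 1 to Sham 4, Vehicle 1, Vehicle 2, LJP 1 or LJP 4 was left out (adjusted p = 0.0502 to 0.104). Sdhb and Sdhc, the iron-sulfur subunit and the other anchor, had values of 0.16 and 0.12 (adjusted p = 0.0965 and 0.168). Sdha, the flavoprotein that binds succinate, had 394 ± 8.26 CPM in Sham and 357 ± 34.0 in Vehicle mice, a log2 fold change of -0.14 (adjusted p = 0.154). All 4 genes separated Vehicle from Sham mice without overlap, Sdha downwards and the others upwards. Across the 92 genes 9 were higher without overlap (20.7% of all genes tested were) and 11 lower without overlap (18.8% of all genes tested were).

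Complex III had 0 of 9 genes called by edgeR, 0 at an unadjusted p below 0.05 and 0 by DESeq2, beside 39.9%, 49.9% and 36.4% of all genes in the same order. Its log2 fold changes ran from -0.03 to 0.11, with a median SE of 0.08. The extremes of its upper end were Uqcrq, a small subunit at the ubiquinone site (0.11, edgeR adjusted p = 0.223), and Cyc1, cytochrome c1 (0.08, adjusted p = 0.427). All 9 intervals lay within 0.58 of 0.

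Complex IV and complex V each held 1 gene called higher and 1 called lower among 17 tested, beside 22.7% and 17.3% of all genes tested. The higher ones were Ndufa4l2 and Atp5g2, described above. Cox6c, a structural subunit of complex IV, was lower, with 105.1, 102.3, 101.7 and 104.4 CPM in Sham mice and 79.1, 79.7, 96.9 and 94.9 in Vehicle mice (log2 fold change -0.24, SE 0.08, edgeR adjusted p = 0.0356). Atp5md, a small membrane subunit of complex V that aids dimer formation, had 57.8, 56.6, 58.1 and 56.0 CPM in Sham and 44.7, 40.3, 54.5 and 50.7 in Vehicle mice (-0.27, SE 0.10, adjusted p = 0.0433). In both genes, and in Ndufs5 (41.6, 42.0, 48.8 and 47.1 CPM), the difference from Sham was larger in Vehicle 1 and Vehicle 2 than in Vehicle 3 and Vehicle 4. Omitting any Sham mouse, Vehicle 1 or Vehicle 2 ended the edgeR calls of Cox6c (adjusted p = 0.0630 to 0.0889), Atp5md (0.0542 to 0.0967) and Ndufs5 (0.0539 to 0.112), and omitting some LJP mice ended those of Atp5md (LJP 1, LJP 3) and Ndufs5 (LJP 2, LJP 3, LJP 4).

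The isoforms of complex IV that are typical of other tissues were scarce. Cox6a2 and Cox7a1, the forms of heart and skeletal muscle, measured 3.75 ± 0.302 and 0.832 ± 0.334 CPM in Sham mice (SD, n = 4). Per kilobase, Cox6a2 was 1.41 ± 0.0693% of the pair with Cox6a1 and Cox7a1 was 1.94 ± 0.765% of the trio with Cox7a2 and Cox7a2l. Cox4i2, the form of subunit 4 known from lung and from cells that sense oxygen, was 0.317 ± 0.108% of the pair with Cox4i1 in Sham, 0.285 ± 0.0383% in Vehicle and 0.220 ± 0.0633% in LJP mice. Its log2 fold change in Vehicle against Sham was -0.06 (SE 0.27, edgeR adjusted p = 0.875) and turned to 0.02 with library sizes alone, and its span overlaps Bcl2l1 by 6308 bases, so its few reads are uncertain. Cox6b2, the form of testis, had a log2 fold change of -0.09 (SE 0.34, adjusted p = 0.844). Cox8c was listed at 0 in 11 of 12 mice and had 1 count in the other.

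**Figure D3:**
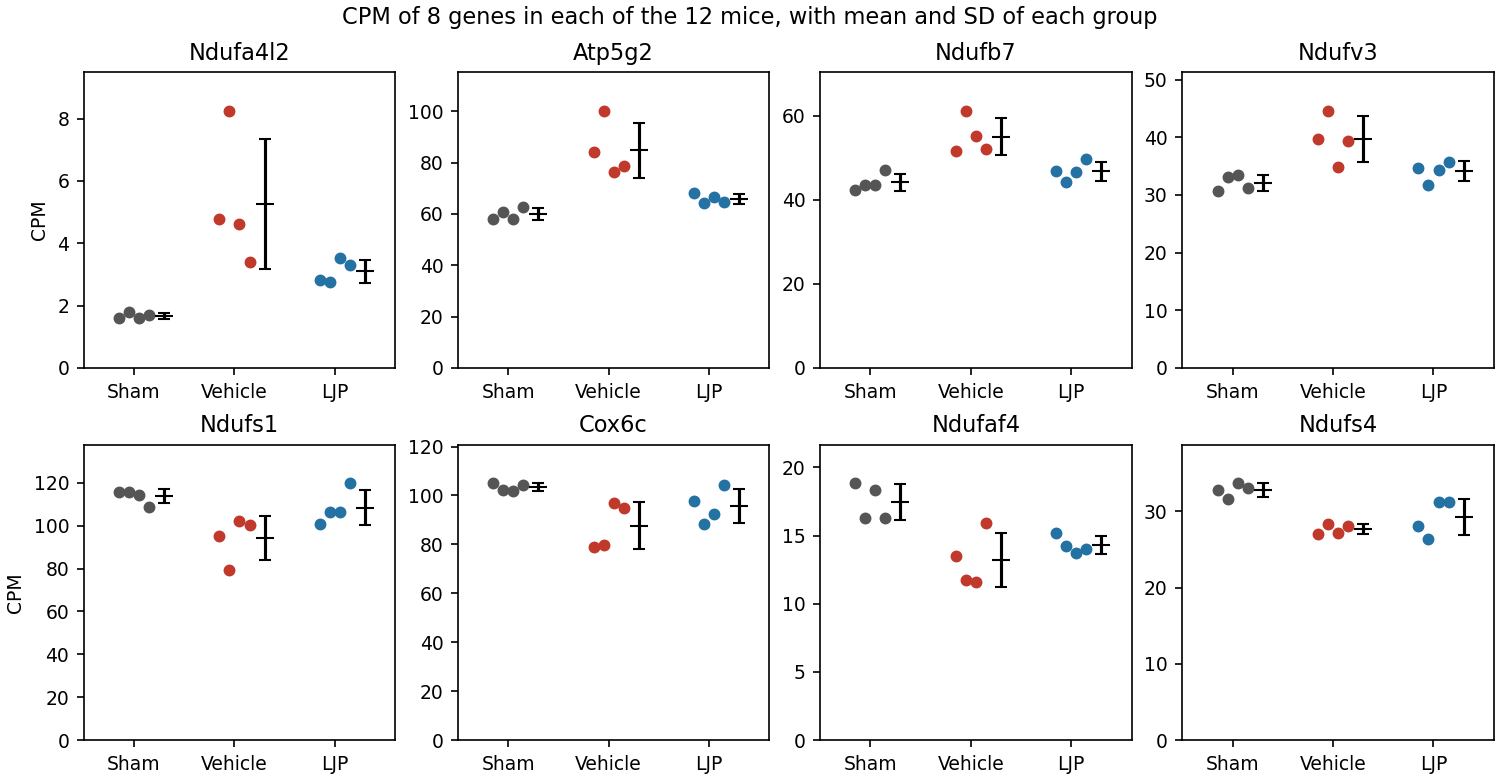
Each point is the CPM (y axis, from 0) of a gene in a mouse, by group (x axis); the bar beside it is the group mean with its SD (n = 4). The upper 4 genes were called higher and the lower 4 called lower in Vehicle than in Sham mice, with LJP means between the 2 in all 8. The genes shown had been called in Vehicle against Sham, so the place of the LJP means is not an independent result. EdgeR called 0 of the 92 genes in LJP against Vehicle.

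Promoters of some called genes are shown from the RefSeq table because transcription factors that switch on nuclear genes of mitochondria bind there. Of the 97 genes, 78 matched an entry in that table (build GRCm38.p6), with 83 promoters between them. The letters GCGCATGC of NRF1, on either strand, stood in 12 of the 83 promoters (14.5%) and in 2.71% of all 32851 promoters of the same length. The letters CCGGAAG of ETS factors stood in 22.9% against 8.86%, and AAGATGGC of YY1 in 13.3% against 2.75%. At least 1 of the 3 was found in 42.2% of the promoters of these genes and in 13.3% of all promoters. Of 9 called genes with an entry, the 4 with a match before the start site were chosen to be printed, 3 called higher and 1 called lower. Ndufa10, Ndufs5 and Ndufv3 held no match, and Ndufs4 and Atp5md held matches only after the start site. The 250 bases before the start site are given 5′ to 3′ with matching letters in capitals. The 10 capitals in Atp5g2 and Ndufaf4 are overlapping NRF1 matches on both strands, and those in Ndufb7 and Sdhd are ETS matches.
Atp5g2 (chr15:102671048-102671297, minus strand): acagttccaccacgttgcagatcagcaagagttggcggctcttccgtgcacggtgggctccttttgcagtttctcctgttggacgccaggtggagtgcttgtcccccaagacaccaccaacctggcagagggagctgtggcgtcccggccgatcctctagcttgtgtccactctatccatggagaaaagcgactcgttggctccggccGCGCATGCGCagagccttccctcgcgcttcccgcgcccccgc
Ndufb7 (chr8:83566508-83566757, plus strand): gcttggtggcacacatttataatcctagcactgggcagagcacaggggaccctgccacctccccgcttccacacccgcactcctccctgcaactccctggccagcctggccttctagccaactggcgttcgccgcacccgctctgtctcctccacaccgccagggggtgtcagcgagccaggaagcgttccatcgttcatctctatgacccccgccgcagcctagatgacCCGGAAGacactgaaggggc
Sdhd (chr9:50603850-50604099, minus strand): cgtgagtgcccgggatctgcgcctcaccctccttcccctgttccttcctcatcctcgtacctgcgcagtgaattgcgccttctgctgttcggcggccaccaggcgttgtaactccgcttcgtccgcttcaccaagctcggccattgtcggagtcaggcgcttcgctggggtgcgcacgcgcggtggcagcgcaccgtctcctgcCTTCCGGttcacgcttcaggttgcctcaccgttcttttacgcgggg
Ndufaf4 (chr4:24897833-24898082, plus strand): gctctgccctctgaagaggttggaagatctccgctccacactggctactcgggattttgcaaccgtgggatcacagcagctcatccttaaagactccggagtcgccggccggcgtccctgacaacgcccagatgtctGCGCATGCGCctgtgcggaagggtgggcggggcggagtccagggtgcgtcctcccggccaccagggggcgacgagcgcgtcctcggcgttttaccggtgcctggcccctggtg
NRF1 letters thus stood before a gene called higher (Atp5g2) and before a gene called lower (Ndufaf4). A match describes these letters only and is not a measured binding site.

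The comparison of LJP with Vehicle mice addresses whether the drug altered these genes after the occlusion. By edgeR 0 of the 92 genes were called, beside 0.0228% of all genes tested. At an unadjusted p below 0.05 there were 7 (29.7% of all genes tested were below it), and DESeq2 called 3, all lower in LJP mice (13.2% of all genes it tested were called and 9.36% were lower). The median absolute log2 fold change was 0.06, and 87 of 92 intervals lay within 0.58 of 0. The 3 genes called by DESeq2 were Atp5g2, Ndufa4l2 and Ndufb7, with DESeq2 adjusted p = 0.00536, 0.0373 and 0.0451. At the study's thresholds Ndufa4l2 alone passed, lower in LJP mice (6.97% of all genes tested did).

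Side by side, the 6 genes called higher in Vehicle against Sham had values below 0 in LJP against Vehicle. The same 4 Vehicle mice enter both comparisons, so the values are not independent. Atp5g2 had a log2 fold change of -0.37 (SE 0.08, edgeR adjusted p = 0.0678), and its LJP and Vehicle mice did not overlap. Ndufa4l2 had -0.77 (SE 0.24, adjusted p = 0.0792), with LJP 3 (3.54 CPM) above Vehicle 4 (3.39 CPM). Ndufb7 had -0.23 (SE 0.07, adjusted p = 0.0830), with LJP values of 46.9, 44.2, 46.6 and 49.7 CPM below every Vehicle mouse. Sdhd had -0.20, Ndufv3 -0.22 and Ndufa2 -0.16 (adjusted p = 0.113, 0.117 and 0.173). None of these passed edgeR's threshold with all 12 mice. Without Vehicle 3, edgeR called Atp5g2, Ndufa4l2 and Ndufv3 lower, and without Vehicle 4 it called Atp5g2 and Ndufa4l2.

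The 7 genes called lower in Vehicle mice were not called in LJP against Vehicle either. Ndufaf5, the lowest of the 92 genes in Vehicle against Sham and not called there by edgeR, had a difference of 0.29 (SE 0.20, edgeR adjusted p = 0.337). Ndufs1 had 0.20 (edgeR adjusted p = 0.139), with LJP values of 101, 106, 106 and 120 CPM that overlapped those of Vehicle mice. Cox6c had 0.13 (adjusted p = 0.299), Atp5md 0.13 (0.3502) and Ndufaf4 0.12 (0.501). Ndufa10 had 0.02 (SE 0.07, 95% interval -0.13 to 0.17), which left its LJP mean at 79.4 ± 3.64 CPM beside 78.3 ± 4.96 in Vehicle and 90.2 ± 4.15 in Sham mice (SD, n = 4). In complex III, Uqcrq had -0.13 (adjusted p = 0.194). Across the 92 genes, 1 was higher in LJP without overlap (Ndufaf7, an assembly factor; 5.77% of all genes tested were) and 7 were lower without overlap (5.91% of all genes tested were).

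Compared with Sham mice, LJP mice had 0 of the 92 genes called by edgeR, beside 4.75% of all genes tested. There were 6 at an unadjusted p below 0.05 (18.8% of all genes tested), and DESeq2 called 1 (7.55% of all genes it tested). That gene was Ndufa4l2, with a log2 fold change of 0.88 (SE 0.25, edgeR adjusted p = 0.0728), and all 4 LJP mice lay above all 4 Sham mice. It was also the gene that passed the study's thresholds (5.9% of all genes tested did). The lowest value was that of Cox4i2 at -0.49 (SE 0.28, adjusted p = 0.377). Ndufa10 and Ndufaf4 had -0.18 and -0.29 (adjusted p = 0.152 and 0.189), again with no overlap. Without overlap 4 genes were higher and 4 lower, beside 12.9% and 12% of all genes tested. Fitting only the LJP and Sham mice gave 4 calls, among them Ndufa4l2, Ndufa10 and Ndufaf4, beside 23.8% of all genes in that fit.

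The medians of the neuron, endothelial and microglia lists moved between mice far more than the median of these genes did. The median of the 92 genes, as log2 difference from the Sham mean, stayed between -0.09 and 0.06 in all 12 mice, and Vehicle 2 was lowest. That of all genes tested stayed between -0.007 and 0.010. A flat median therefore does not show that the single genes were unchanged. In Vehicle 1 to Vehicle 4, the neuron marker median was -0.36, -1.001, -0.23 and -0.33, the endothelial median 1.39, 2.77, 0.53 and 0.81, and the microglia median 0.44, 0.997, 1.28 and 1.35. All 8 infiltrating myeloid markers summed to 8.33 to 13.0 CPM in Sham, 46.7 to 212 in Vehicle and 15.3 to 80.9 in LJP mice. Neuron markers were called lower for 4 of 10 and endothelial markers higher for 4 of 6 in Vehicle against Sham, beside 17.3% lower and 22.7% higher among all genes tested. The neuron list summed to 7393 to 8183 CPM in Sham, 4449 to 7051 in Vehicle and 6772 to 7963 in LJP mice. Vehicle 2, at the extreme of the neuron and endothelial lists, was the highest Vehicle mouse for 6 of the 6 genes called higher. Of the 7 called lower, Vehicle 2 was lowest for 3 (Ndufs1, Ndufa10 and Atp5md), Vehicle 1 for 3 and Vehicle 3 for 1. How often each mouse was the extreme over all genes tested is not given here. The part of cell makeup in these values was not tested. Without Vehicle 2, 9 of the 92 genes were called, 5 higher and 4 lower, and the share of all genes called in that fit is not given here.

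**Figure D4:**
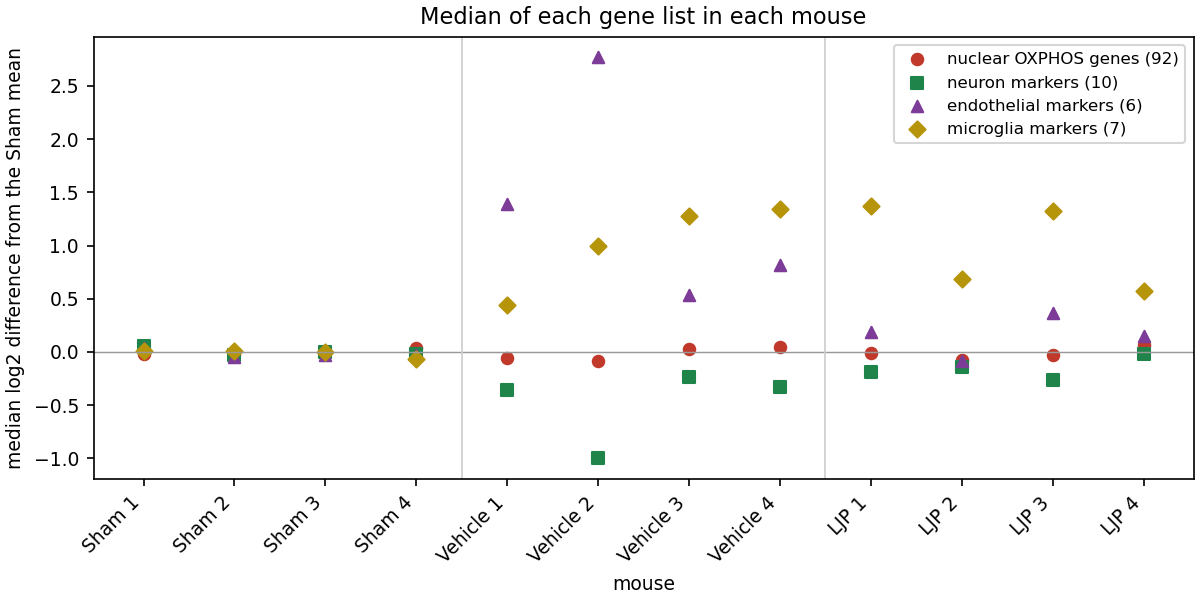
For each of the 12 mice (x axis) the median log2 difference from the Sham mean (y axis, log2 of CPM plus 1) is shown for the 92 nuclear genes and 3 marker lists. The nuclear genes (circles) stay between -0.09 and 0.06, while endothelial markers reach 2.77 and neuron markers -1.001 in Vehicle 2.

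Genes of the same pathway outside the chosen names were read from lists. Of 46 other assembly factors of the complexes, 2 were called higher and 6 lower in Vehicle against Sham, beside 22.7% and 17.3% of all genes tested. The same shares apply to the lists that follow. Lyrm7, which helps to insert the iron-sulfur protein of complex III, fell from 9.95 to 5.11 CPM (log2 fold change -0.96, edgeR adjusted p = 0.00223), and Ttc19, which maintains the same complex, fell from 206 to 148 CPM (-0.48, adjusted p = 0.00237). Of 26 genes for mitochondrial DNA and RNA upkeep, 2 were higher and 3 lower, with Hsd17b10 at 0.68 and Lrpprc at -0.38. Of 12 regulators, 4 were lower and 0 higher, and those with the smallest p were the coactivators Ppargc1a (-0.55, adjusted p = 0.00145) and Ppargc1b (-0.62, adjusted p = 0.00381). In these 3 lists and the 2 below, 0 genes were called by edgeR in LJP against Vehicle (0.0228% of all genes tested were), and DESeq2 called 1 gene of pyruvate dehydrogenase and the citric acid cycle and 3 electron carriers or exchangers lower (9.36% of all genes it tested were).

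Lists of genes that supply electrons or exchange nucleotides were called in shares near or below those of all genes tested (39.9%). Of 24 genes for pyruvate dehydrogenase and the citric acid cycle, 4 were higher and 5 lower in Vehicle mice. Idh2, the NADP-dependent isocitrate dehydrogenase of mitochondria, rose by a log2 fold change of 0.93, and Pdp1, a phosphatase that activates pyruvate dehydrogenase, fell by 1.05. Of 21 electron carriers and exchangers, 5 were higher and 2 lower. Ucp2, a carrier abundant in macrophages and microglia, rose from 25.8 to 203 CPM (2.98, edgeR adjusted p = 0.000330), and Coq7, an enzyme of ubiquinone synthesis, rose by 0.51. In LJP against Sham mice, Idh2 (0.57, adjusted p = 0.0316) and Ucp2 (1.67, adjusted p = 0.0278) were the genes called in these 2 lists, beside 3.85% of all genes tested that were higher.

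On chrM, tRNA genes were lower after the occlusion, while the rRNA genes were not called. Of 22 tRNA genes, 13 had enough counts to be tested, and 12 of these were lower in Vehicle than in Sham mice, beside 17.3% of all genes tested. Their median log2 fold change was -0.77. TrnE had 167, 152, 142 and 156 CPM in Sham mice, 94.1, 123.1, 71.4 and 73.9 in Vehicle mice and 83.9, 63.0, 74.5 and 90.6 in LJP mice (Vehicle against Sham -0.77, SE 0.16, edgeR adjusted p = 0.00336). Every mouse with an occlusion lay below every Sham mouse. TrnW was lower in both groups as well (-1.17, SE 0.26, adjusted p = 0.00415), and TrnR fell by 1.47 but had a wide range in Vehicle mice, from 0.862 to 9.63 CPM. TrnS1 was not called, with 18.8 CPM in Vehicle 4 and 2.09 to 2.71 in the other Vehicle mice.

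The rRNA genes mt-Rnr1 and mt-Rnr2, of the small and large mitochondrial ribosomal subunits, had log2 fold changes of -0.14 and -0.05 in Vehicle against Sham (edgeR adjusted p = 0.360 and 0.811). In LJP against Vehicle, 0 of the 15 chrM genes tested were called by edgeR and 0 by DESeq2, and 2 had an unadjusted p below 0.05, beside 0.0228%, 13.2% and 29.7% of all genes in the same order. In LJP against Sham, 5 tRNA genes were lower (beside 0.9% of all genes tested), and fitting those 2 groups alone gave 11 (beside 11.8% of all genes called lower in that fit). The summed tRNA level was 321 to 377 CPM in Sham, 195 to 249 in Vehicle and 166 to 229 in LJP mice, so both groups with an occlusion lay below Sham. TrnE had the highest level of the tRNA genes and weighs most in this sum. The sum also holds TrnQ, which was not tested and had 15.2 CPM in LJP 3, 0.056 in LJP 4 and 0 in every other mouse. Of the 13 tRNA genes tested, 9 had log2 fold changes above 0 and 4, TrnE and TrnW among them, below 0 in LJP against Vehicle, with a median of 0.22. The libraries were made from poly(A)-selected RNA fragmented before sequencing. How much of each short tRNA such libraries retain, and whether counting used strand, are not given in the sources used here. The chrM rows took 0.327% (LJP 2) to 0.551% (Vehicle 2) of all counts.

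**Figure D5:**
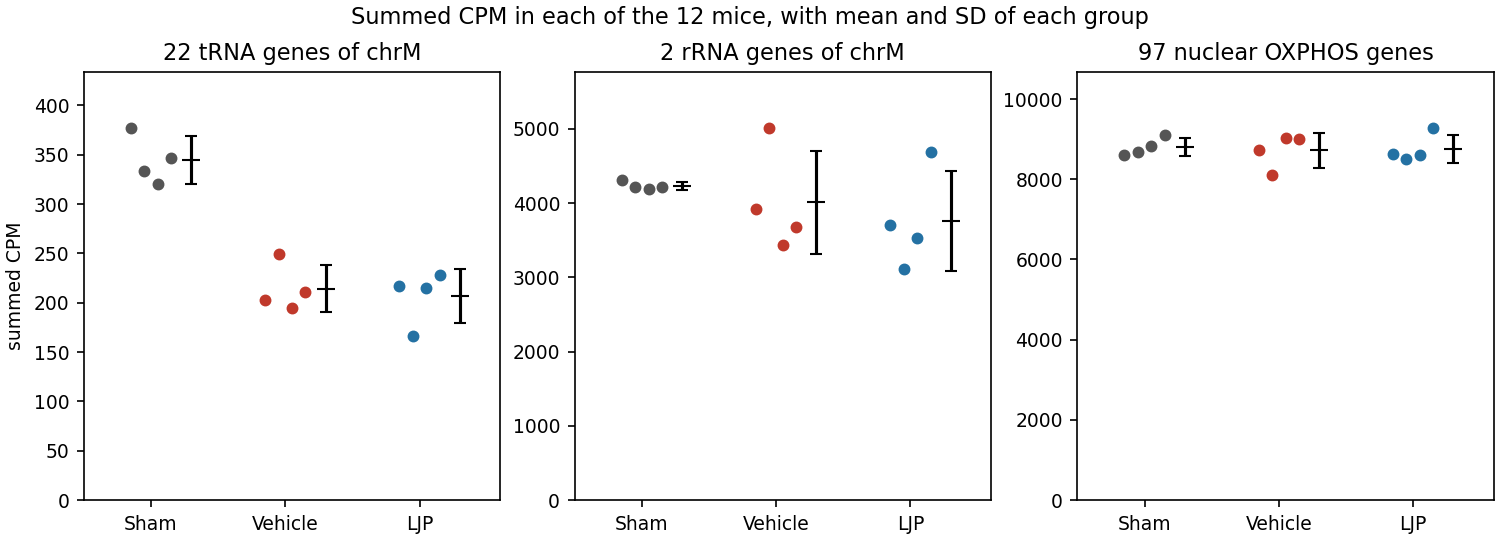
Summed CPM (y axes, from 0) of the 22 tRNA genes and the 2 rRNA genes of chrM and of the 97 nuclear genes in each mouse, by group (x axis), with the group mean and SD (n = 4). tRNA sums of Vehicle and LJP mice (166 to 249) lie below all Sham sums (321 to 377), while the other 2 sums overlap between groups.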

How the data were processed

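The authors deposited a table of raw read counts per gene for 12 mice, with positions that match GRCm38 and with gene lengths. The table itself was not normalized. Per the study's methods, poly(A) RNA of ischemic hemispheres was fragmented and sequenced. The submitters' processing notes name featureCounts, DESeq2, GRCm39 and mm10. Aligner, strand setting and the handling of shared reads are not given in the sources used here.

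In R 4.3.3, edgeR 4.0.16 was run with filterByExpr, TMM factors and quasi-likelihood tests between group coefficients fitted to all 12 mice. Benjamini-Hochberg adjustment covered 17558 genes, with a threshold of 0.05. The p-values measure the spread between these mice. Levels are CPM on the normalized library size (mean ± SD). Per-mouse list medians used log2 of CPM plus 1. Alternatives were DESeq2 1.42.0, RLE factors, library sizes alone, normalization without chrM genes, no filter, fits of 2 groups at a time, a block for the replicate number, the study's thresholds (unadjusted p below 0.01, absolute log2 fold change over 0.58) and leaving out each mouse. Those for the chrM tRNA and rRNA genes were added after seeing the data. Total counts per mouse were 17960353 to 22216315, and a floor of 3 counts covers counting error only. No library looked like a second deposit of another (chi-square per degree of freedom of 2.54 to 123 for pairs within a group). Plots used matplotlib 3.10.9.

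The members and lists were chosen with earlier results of these data known. Named genes were all Sdh genes, the smallest p-values in each complex (3 in Vehicle vs Sham, 2 in LJP vs Vehicle), listed isoforms, the extremes of each comparison and 2 genes of each list. All genes called in Vehicle vs Sham were named as well, and Ndufaf6, Atp5b, the overlaps and the chrM genes were named after their values were seen. The lists were assembly factors outside the rule, mitochondrial DNA and RNA upkeep, regulators, pyruvate dehydrogenase and citric acid cycle (1 of 25 symbols did not match), electron carriers and exchangers, and cell type markers.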

Additional observations from a re-analysis of the deposited data

Results flagged for a closer look

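In the CPM of 70 tested genes named here, 11 of 210 groups of 4 mice held a mouse far from the others of its group by Dixon's ratio (the gap to the nearest mouse divided by the range of the group), while chance gives about 1 in 20, or 10.5. Among the nuclear genes of oxidative phosphorylation, Sham 2 was lowest for Sdha (0.841) and LJP 2 lowest for Sdhc (0.891). LJP 4 was highest for Cox7b, a small subunit of complex IV (0.914), and for Atp5b (0.969). Sham 3 was highest for Ndufa10 (0.878), and without it the call of Ndufa10 in Vehicle against Sham ended. On chrM, Vehicle 4 was highest for TrnS1 (0.963). Among the markers, Sham 1 was lowest for Gfap (0.905) and Mbp (0.902), Vehicle 1 lowest for Csf1r (0.880), LJP 3 highest for Pecam1 (0.941) and LJP 2 highest for Acta1 (0.850).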

How the results depend on the processing

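For Vehicle against Sham, the count of 13 nuclear genes became 6 without the filter on low counts, 7 with only the 2 groups compared and 1 at the study's thresholds, and ran from 6 to 16 when a mouse was left out; the 16 calls with library sizes alone were 15 higher and 1 lower, and 7 were shared. For LJP against Vehicle, the count of 0 became 3 by DESeq2, 1 at the study's thresholds and 0 to 3 without a mouse. For LJP against Sham, 0 became 1 by DESeq2, 4 with the 2 groups alone, 1 at the study's thresholds and 0 to 1 without a mouse. The chrM counts of 12, 0 and 5 ran from 9 to 13, 0 to 2 (2 without Vehicle 3) and 3 to 5 without a mouse, and the last became 11 with the 2 groups alone. The cause was not tested. Beyond DESeq2, the study's thresholds and LJP against Sham with the 2 groups alone, shares of all genes called are not given here. The replicate numbers did not pair the mice (correlations of same-numbered deviations from -0.41 to 0.17), and the replicate block gave 11, 0 and 0 nuclear calls.

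Values near 0 turned sign. In Vehicle against Sham, Cox4i2 gave 0.020004 and Cox6a2 0.0741 with library sizes alone, and Cox6a2 gave 0.0069 without the filter, 0.0019 with the 2 groups alone and 0.0024 with the block. In LJP against Vehicle, Cox7a2 gave -0.0236 with library sizes alone and -0.0049 with the 2 groups alone, and Ndufa10 gave -0.0039 with library sizes alone. When a mouse was left out, log2 fold changes of Vehicle against Sham ran from -0.191 to 0.128 for Cox4i2, -0.0616 to 0.0480 for Cox6a2, -0.316 to 0.144 for Cox6b2 and -0.0322 to 0.3503 for Cox7a1. Those of LJP against Vehicle ran from -0.0693 to 0.0020 for Cox6a1, -0.103 to 0.314 for Cox6b2, -0.0593 to 0.0703 for Cox7a2, -0.0037 to 0.135 for Cox8a, -0.0094 to 0.0632 for Ndufa10 and -0.0879 to 0.0020 for Sdhb, and that of LJP against Sham from -0.0208 to 0.0448 for Sdhd. The planned counts of chrM protein genes gave no value, since those genes were not analysed here. Genes near 1 CPM such as Cox7a1 and Cox4i2 had standard errors of 0.36 and 0.27 (log2, Vehicle against Sham), so small changes in them were not detectable at this depth.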

Other observations

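Marker lists not described above gave these values. Microglia markers were called higher by edgeR's quasi-likelihood test for 5 of 7 in Vehicle against Sham and for 5 of 7 in LJP against Sham (22.7% and 3.85% of all genes tested were higher), with Csf1r, the receptor that sustains these cells, at 99.8, 239 and 209 CPM in Sham, Vehicle and LJP mice and Aif1, which encodes Iba1, at 2.72, 9.64 and 9.11 CPM. Astrocyte markers were called higher for 2 and lower for 1 of 7 in Vehicle against Sham. Gfap, the filament protein of reactive astrocytes, measured 141, 2066 and 1569 CPM, and Aldh1l1, a folate enzyme of astrocytes, 63.9, 139 and 103 CPM. Of 8 myeloid markers, 3 had enough counts to be tested and 5 did not, and since low genes could pass through the mice in which they were high, no count of calls is drawn from them. Lyz2, a lysozyme, measured 8.62, 90.6 and 39.3 CPM, and Itgal, an integrin of leukocytes, 0.939, 6.28 and 1.41 CPM. In LJP against Sham, 2 of 7 astrocyte markers were called higher, beside the same 3.85%. Oligodendrocyte markers were called higher in Vehicle against Sham for 1 of 6, Mobp, a myelin protein (769, 1079 and 821 CPM), while Mbp, another myelin protein, was not called (edgeR adjusted p = 0.0700). Endothelial markers in the Sham, Vehicle and LJP groups included the junction protein Cldn5 at 42.6, 170.4 and 58.5 CPM and the adhesion molecule Pecam1 at 19.6, 147.9 and 25.1 CPM. Neuron markers included Nefl, a neurofilament, at 581, 366 and 444 CPM and Syt1, of synaptic vesicles, at 1257, 832 and 1085 CPM. Of 6 striated muscle markers, 4 were tested and 0 called by edgeR, with 1 at an unadjusted p below 0.05 (Acta1, skeletal actin, adjusted p = 0.0547, and by DESeq2 0.0385), and Myh1, a muscle myosin, lay at 0.946, 1.04 and 1.04 CPM. In LJP against Vehicle, edgeR called 0 genes of these marker lists, the myeloid list left out, beside 4 of all 17558 genes tested (0.0228%). There 5 of 6 endothelial markers had an unadjusted p below 0.05 (29.7% of all genes tested did), with a list median log2 fold change of -1.43, and DESeq2 called 5 of them lower (DESeq2 adjusted p = 0.00184 for Cldn5 and 0.00199 for Pecam1). DESeq2 also called lower 1 astrocyte marker (Aldh1l1, 0.0130) and 1 oligodendrocyte marker (Mbp, 0.0164), and called higher 1 neuron marker (Syt1, 0.0449), beside 13.2% of all genes it tested.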
